A study of Homo sapiens with 8 samples.

Results

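A set of 10 target genes of KMT2A fusions that lie outside the HOX and TALE homeobox families was followed in RNA-sequencing counts of MOLM-13 cells. The genes were ZEB2, EYA1, SKIDA1, CPEB2, IGF2BP2, MBNL1, PROM1, LAMP5, TCF4 and VENTX. They were picked by name as known targets, at a time when earlier results of these data were known. All 10 were found among the 38551 genes of the table that held values. Of these 10 genes, 8 passed the filter on low counts and were tested together with 13179 genes in all. MOLM-13 is an established line of acute myeloid leukemia in which KMT2A is rearranged. One group of 4 libraries came from cells given DMSO, the diluent, and the other group of 4 from cells given 100 nM PR-957 (ONX-0914), an inhibitor of the immunoproteasome subunit PSMB8. Both groups were harvested at 72 h, carried the same KMT2A rearrangement and grew in the same serum-containing medium. Nothing in the labels ties the 4 replicates to separate cultures, so p-values measure the spread between these libraries, which may be technical.

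KMT2A is a histone methyltransferase that finds its genes partly through a CXXC domain, which binds unmethylated CpG dinucleotides. In leukemia its front part is joined to partner proteins that bring elongation factors and the methyltransferase DOT1L to the bound genes, and the adaptor Menin holds the fusion on chromatin. Besides HOXA genes and MEIS1, fusion targets include transcription regulators (here ZEB2, TCF4, VENTX, EYA1 and SKIDA1), RNA-binding proteins (IGF2BP2, CPEB2 and MBNL1) and membrane proteins (LAMP5 and PROM1). The comparison addressed which of these genes change when PSMB8 is inhibited.

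Total counts per library ran from 16675036 to 23111223, and the deepest library was DMSO replicate 4. That library lay apart from the other 3 DMSO libraries (Dixon's 95% critical value for the gap over the range) in 3.64% of tested genes, where the other 7 libraries lay apart from their group in 0.69% to 1.41%. Without it 2 genes of the set were higher and 4 lower, as with it. Of 7 myeloid markers all 7 were tested. By the test described below, CEBPA and CD33 were not called, and MPO (2.9 times the DMSO level), SPI1 and CSF3R were higher under PR-957. PTPRC (0.63 of the DMSO level) and FLT3 (0.51) were lower. Markers of other lineages summed to between 1.44 and 3.48 library-scaled counts (CPM, TMM-normalised) in any library, with CD3E and PF4 at 0 counts. Mitochondrially encoded genes made up 1.94% to 2.75% of each DMSO library and 4.15% to 5.24% of each PR-957 library, and the part of this shift in the results was not tested.

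PR-957 split the set. IGF2BP2, SKIDA1, VENTX and CPEB2 were lower than in DMSO, TCF4 and LAMP5 were higher, ZEB2 and MBNL1 did not pass the test, and EYA1 and PROM1 were not measurable. At 0.05 after adjustment over all genes tested (quasi-likelihood test of edgeR), 4 of the 8 tested genes were lower, against 23.5% of all tested genes, and 2 of 8 were higher, against 23.1%. In both directions together this was 6 of 8 genes, where 46.6% of all tested genes were called. Most of these calls were small changes. At 1.5-fold or more 2 of the 8 genes were called, TCF4 and IGF2BP2, and 1818 of the 13179 tested genes. The CPM values of the groups did not overlap for 6 of the 8 genes and for 42.5% of all tested genes. With 8 genes these shares describe the set and were not tested against the background. The median log2 fold change (log2FC) of the 8 genes was -0.20, and that of all tested genes was 0.003. With library totals in place of trimmed-mean (TMM) scaling the median of all genes was 0.08 and that of the 8 genes -0.12, and 4061 genes were called higher and 2355 lower, where TMM scaling gave 3045 and 3098.

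**Figure D1:**
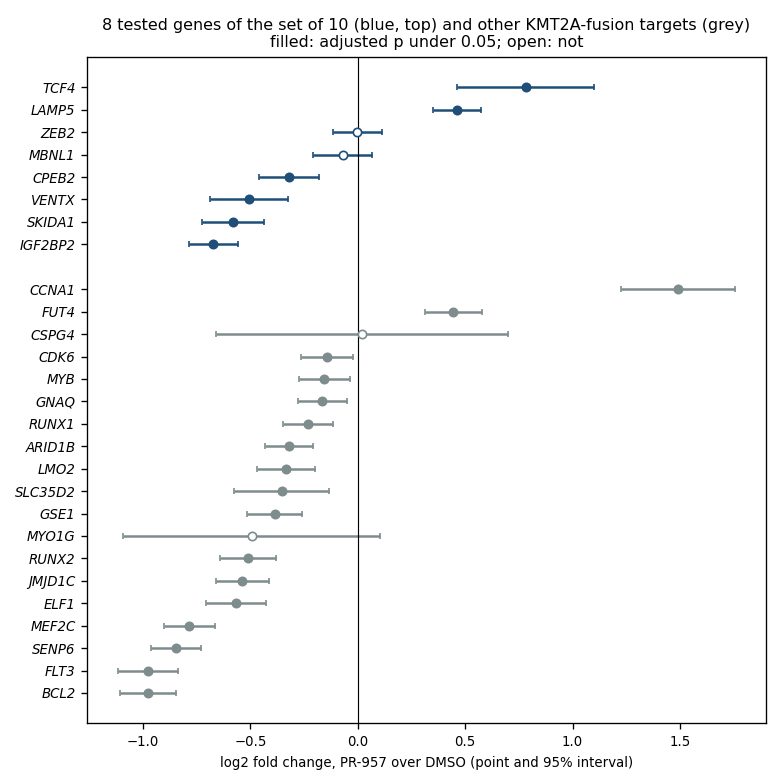
Log2 fold change of PR-957 over DMSO (x axis) with its 95% interval for the 8 tested genes of the set (blue) and 19 other KMT2A-fusion targets (grey), 4 libraries a group. Filled points passed an adjusted p of 0.05 and open points did not. TCF4 and LAMP5 lie to the right of 0, ZEB2 and MBNL1 span it, and CPEB2, VENTX, SKIDA1 and IGF2BP2 lie to the left.

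Levels were compared between genes as fragments per kilobase of exon scaled to library size (FPKM), since longer genes gather more counts. In DMSO, LAMP5 stood highest at 54.4 ± 1.44 FPKM (SD, n = 4) and TCF4 lowest of the measured genes at 0.469 ± 0.0461 FPKM. LAMP5 lay at the 92.3 percentile of tested genes and TCF4 at the 12.4 percentile. MBNL1 followed LAMP5 at 35.8 ± 1.96 FPKM, then IGF2BP2 at 20.7 ± 0.884 FPKM. ZEB2 had 16.3 ± 0.480 FPKM and VENTX 15.04 ± 1.79 FPKM, and the libraries of these neighbours overlapped. SKIDA1 came next at 6.28 ± 0.469 FPKM and CPEB2 at 3.14 ± 0.148 FPKM. All other neighbours among the 8 genes were apart in every DMSO library. Under PR-957 the order changed at a single place, where ZEB2 at 16.3 ± 0.900 FPKM stood above IGF2BP2 at 13 ± 0.603 FPKM, with no overlap.

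RefSeq windows were found for 9 of the 10 genes, all but EYA1. The windows and letter counts were chosen after the values were seen. The sequences before the start sites of LAMP5, IGF2BP2 and SKIDA1 are shown because they belong to the most abundant gene that rose and to the genes with the lowest fold changes, and because CpG is the dinucleotide that the CXXC domain reads. They are 250 bases upstream of a RefSeq start on GRCh38.p14, the same primary assembly as hg38, read 5′ to 3′ on the gene's strand, with each CpG in capitals. LAMP5 is chr20:9514340-9514589 on the plus strand, which runs into the counted span of the gene because an earlier start is also listed, IGF2BP2 is chr3:185825043-185825292 on the minus strand and SKIDA1 is chr10:21525683-21525932 on the minus strand.
LAMP5: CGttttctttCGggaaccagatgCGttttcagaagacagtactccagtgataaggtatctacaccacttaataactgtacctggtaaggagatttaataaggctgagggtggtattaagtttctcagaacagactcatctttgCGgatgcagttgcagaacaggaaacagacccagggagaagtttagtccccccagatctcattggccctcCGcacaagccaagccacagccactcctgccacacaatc
IGF2BP2: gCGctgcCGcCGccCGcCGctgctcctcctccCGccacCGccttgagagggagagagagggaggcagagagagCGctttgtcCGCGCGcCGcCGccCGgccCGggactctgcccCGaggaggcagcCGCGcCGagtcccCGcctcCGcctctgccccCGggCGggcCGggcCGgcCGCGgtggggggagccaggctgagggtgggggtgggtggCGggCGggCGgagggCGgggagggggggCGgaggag
SKIDA1: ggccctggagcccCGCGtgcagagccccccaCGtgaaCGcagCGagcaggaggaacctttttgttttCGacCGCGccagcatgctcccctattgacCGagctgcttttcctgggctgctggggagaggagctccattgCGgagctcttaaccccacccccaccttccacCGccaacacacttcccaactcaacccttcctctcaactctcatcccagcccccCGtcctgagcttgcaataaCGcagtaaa

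The LAMP5 window held 5 CpG dinucleotides, the SKIDA1 window 13 and the IGF2BP2 window 32. The median over 14379 such windows of tested genes was 20, which put LAMP5 at the 15 percentile, SKIDA1 at 30.3 and IGF2BP2 at 87.0. VENTX had 19 CpG dinucleotides, CPEB2 40 and ZEB2 12 in their only listed windows. The 10 windows listed for TCF4, which has many alternative starts, held between 0 and 26. A second IGF2BP2 window, further into the gene, held 2. The genes that fell thus had windows both above and below the median. ZEB2 and TCF4 proteins bind E-boxes, written CANNTG, a motif that reads the same on both strands. The LAMP5 window held 2 of them, the SKIDA1 window 1 and the printed IGF2BP2 window 0, while 54.5% of the windows of tested genes held at least 1. The second IGF2BP2 window held 2. The forms CAGGTG and CACCTG, each the reverse complement of the other and the letters best known for ZEB2, were in none of these 4 windows and in 15.7% of the windows of tested genes. These are matches of letters only.

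Of the RNA-binding proteins, IGF2BP2 showed the largest decrease of the set. IGF2BP2 binds methylated messenger RNA and stabilises it, and the gene lies at chromosome 3, 185643130 to 185825046 (hg38). DMSO replicates 1 to 4 had 144.5, 137, 131 and 141.7 CPM, and PR-957 replicates 1 to 4 had 86.2, 92.9, 83.8 and 85.2 CPM. Every PR-957 library was thus below every DMSO library. The means were 138.6 ± 5.91 and 87.0 ± 4.05 CPM (SD, n = 4), log2FC -0.67 (SE 0.06, adjusted p = 1.07e-08, edgeR), or 0.628 of the DMSO level with a 95% interval from 0.579 to 0.680. Fitted on replicates 1 and 2 the value was -0.65, and on replicates 3 and 4 it was -0.70.

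CPEB2, which regulates the poly(A) tails and translation of messenger RNA, fell less. It lies at chromosome 4, 15002426 to 15070153, and its exons are also listed on an alternate contig. Fragments that align to both places are not counted without an option that the counting command lacks, and how many were lost was not tested. CPEB2 had 33.4, 35.8, 32.1 and 34.6 CPM in DMSO replicates 1 to 4 and 26.8, 28.4, 27 and 26.7 CPM in PR-957 replicates 1 to 4. The groups were apart, with a narrow spread within PR-957. Its log2FC was -0.32 (SE 0.07, adjusted p = 0.000652, edgeR), a level of 0.801 with a 95% interval from 0.726 to 0.883.

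MBNL1, a muscleblind splicing regulator at chromosome 3, 152243656 to 152465780, had the most counts of the set. DMSO replicates 1 to 4 had 303.9, 329.1, 346.4 and 334.8 CPM, and PR-957 replicates 1 to 4 had 272.4, 309.6, 329.4 and 340.4 CPM. The groups overlapped, and the lowest library was PR-957 replicate 1. The log2FC of -0.07 (SE 0.07) did not pass the test (adjusted p = 0.398, edgeR), and its 95% interval ran from 0.866 to 1.05 of the DMSO level. With library totals alone its sign changed. MBNL1-AS1, an antisense gene that shares 144 exon bases with MBNL1 on the opposite strand, fell from 13.4 to 8.31 CPM, with log2FC -0.69 (SE 0.11, adjusted p = 5.50e-05, edgeR). LOC105374162, on the strand of MBNL1 with no shared exon base, rose from 2.01 to 3.10 CPM (adjusted p = 0.0139, edgeR). Counting was by strand according to the header, while the labels do not say whether the kit marks strand.

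**Figure D2:**
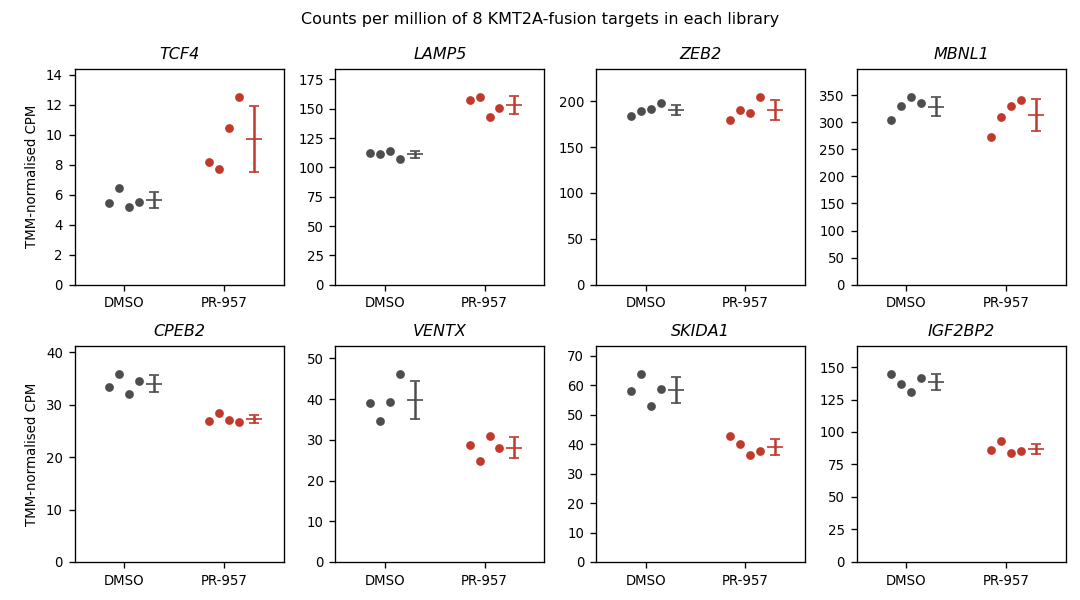
TMM-normalised CPM (y axis, from 0) of the 8 tested genes in each library. Points are the 4 DMSO (grey) and 4 PR-957 (red) libraries in replicate order, and bars beside them are mean ± SD. Groups are apart for TCF4, LAMP5, CPEB2, VENTX, SKIDA1 and IGF2BP2 and overlap for ZEB2 and MBNL1.

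Among the transcription regulators, SKIDA1 and VENTX fell. SKIDA1 encodes a nuclear protein with a SKI/DACH domain at chromosome 10, 21510754 to 21525682. It had 58.2, 63.8, 53.1 and 58.9 CPM in DMSO replicates 1 to 4 and 42.6, 40.0, 36.3 and 37.6 CPM in PR-957 replicates 1 to 4. The highest PR-957 library was below the lowest DMSO library. Its log2FC was -0.58 (SE 0.07, adjusted p = 1.40e-06, edgeR), a level of 0.668 with a 95% interval from 0.604 to 0.739. MLLT10, itself a fusion partner of KMT2A in leukemia, overlaps the span of SKIDA1 on the opposite strand and shares no exon base with it. MLLT10 was also lower, at 70.4 and 55.1 CPM, with log2FC -0.35 (SE 0.06, adjusted p = 4.22e-05, edgeR).

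VENTX, a homeobox gene linked to maturation of myeloid cells, lies at chromosome 10, 133237855 to 133241928. DMSO replicates 1 to 4 had 39.1, 34.7, 39.2 and 46.1 CPM, and PR-957 replicates 1 to 4 had 28.7, 24.7, 30.9 and 27.9 CPM. The groups did not overlap, with DMSO replicate 4 the highest library. Its log2FC was -0.51 (SE 0.09, adjusted p = 0.000105, edgeR), a level of 0.704 with a 95% interval from 0.621 to 0.799. Without DMSO replicate 4 it was -0.42. VENTX is one of the genes the study itself names as lower in these libraries, so its direction is not independent evidence. Nor are the directions of the other genes of the set, which was chosen with earlier results of these data known. The study's figures used fold cutoffs of at least 1.5, while no cutoff was used here. The level of 0.704 falls short of a 1.5-fold decrease.

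ZEB2 encodes a zinc-finger repressor needed in blood development and lies at chromosome 2, 144384081 to 144520119. Its DMSO replicates 1 to 4 had 183.9, 189.7, 191.7 and 197.5 CPM, and its PR-957 replicates 1 to 4 had 179.5, 190.8, 187.2 and 204.6 CPM. The groups overlapped, and both the lowest and the highest library were PR-957 libraries. Its log2FC was -0.0015 (SE 0.05, adjusted p = 0.985, edgeR), with a 95% interval from 0.924 to 1.08 of the DMSO level. Its sign changed, among other settings, with upper quartile scaling and with library totals alone. ZEB2-AS1, antisense to ZEB2 with 152 shared exon bases, had 3.04 and 2.84 CPM (adjusted p = 0.706, edgeR).

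TCF4 had the largest increase of the set over all libraries, from the lowest measured level. It encodes an E protein, a helix-loop-helix factor that directs plasmacytoid dendritic cell fate, and lies at chromosome 18, 55222185 to 55635957. The raw counts were 87, 116, 86 and 126 in DMSO replicates 1 to 4 and 147, 148, 229 and 223 in PR-957 replicates 1 to 4. Scaled, these were 5.44, 6.45, 5.19 and 5.50 CPM against 8.18, 7.72, 10.4 and 12.5 CPM. The groups were apart, and PR-957 replicates 3 and 4 stood above PR-957 replicates 1 and 2. The means were 5.65 ± 0.555 and 9.72 ± 2.22 CPM, log2FC 0.78 (SE 0.15, adjusted p = 0.000336, edgeR), or 1.72-fold with a 95% interval from 1.38 to 2.15. Fitted on replicates 1 and 2 the value was 0.41, below the 0.51 of LAMP5 there, and did not pass the threshold (adjusted p = 0.0551, edgeR). Replicates 3 and 4 gave 1.09 (adjusted p = 0.000185, edgeR). The difference between these pairs of replicates was 0.68 on the log2 scale (SE 0.24), which did not pass adjustment over all genes (adjusted p = 0.653, edgeR, interaction term chosen after seeing the data). Without PR-957 replicate 4 the increase was 0.64.

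LAMP5, a member of the lysosome-associated membrane protein family that marks plasmacytoid dendritic cells and KMT2A-rearranged leukemias, was the other gene that rose. It lies at chromosome 20, 9514358 to 9530524. DMSO replicates 1 to 4 had 111.9, 111.7, 113.7 and 106.9 CPM, and PR-957 replicates 1 to 4 had 157.7, 160.1, 143.3 and 151.1 CPM. No library of a group reached the range of the other. The means were 111.1 ± 2.94 and 153 ± 7.54 CPM, log2FC 0.46 (SE 0.05, adjusted p = 1.05e-06, edgeR), or 1.38-fold with a 95% interval from 1.28 to 1.49. LAMP5-AS1 shares 153 exon bases with LAMP5 on the opposite strand and had 57 counts over the 8 libraries, against 19865 for LAMP5.

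EYA1, a phosphatase and partner of sine oculis homeobox factors at chromosome 8, 71197433 to 71548104, had 1 count in DMSO replicate 4 and 0 in the other 7 libraries. PROM1, which encodes the stem-cell surface antigen CD133 at chromosome 4, 15968226 to 16084059, had 1 count in PR-957 replicate 1 and 0 elsewhere. A count of 0 in a library allows up to 3 counts, or between 0.130 and 0.180 CPM by library, an interval that covers counting error only. Neither direction nor absence of a change could be read for these genes at this depth.

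**Figure D3:**
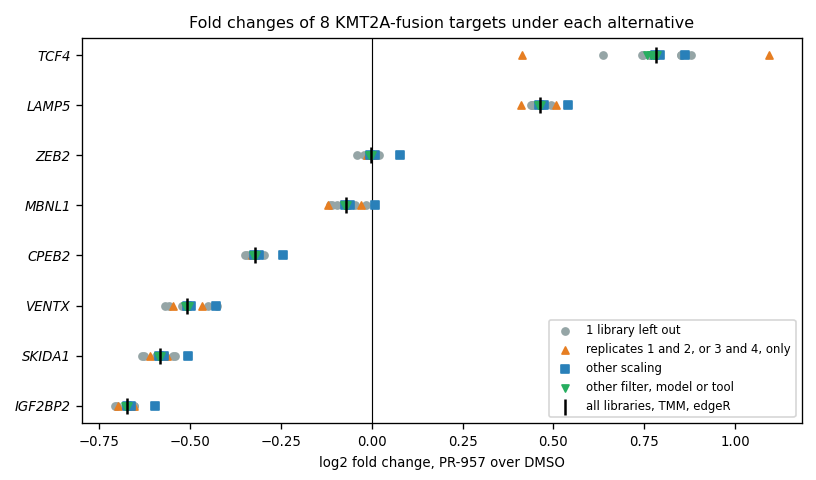
Log2 fold change of PR-957 over DMSO (x axis) of the 8 tested genes under each alternative, with the reported value as a black bar, fits without 1 library as grey circles, fits on a pair of replicates as orange triangles, other scalings as blue squares and other filters, models or tools as green triangles. TCF4 spreads the most, from 0.41 in replicates 1 and 2 only to 1.09 in replicates 3 and 4 only, and the 4 genes that fell stay left of 0 throughout.

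The relatives of these genes were examined next, from lists written with earlier results of these data known. All 3 IGF2BP genes fell. IGF2BP3 had a log2FC of -0.60 (SE 0.08, adjusted p = 2.74e-06, edgeR) and IGF2BP1 one of -0.20 (SE 0.06, adjusted p = 0.00792, edgeR). With library totals alone IGF2BP1 was not called (log2FC -0.12, adjusted p = 0.0898, edgeR). In replicates 3 and 4 only, 2 of the 3 genes were called lower. IGF2BP2 took 59.6 ± 1.99% of the family's counts per kilobase in DMSO and 55.0 ± 1.10% in PR-957. Shares do not depend on library scaling. This difference had the smallest p that 4 against 4 libraries allow (exact permutation p = 0.0286, two-sided) and did not pass adjustment over the 5 families compared (adjusted p = 0.0714). Of the regulators listed for IGF2BP2, HMGA2, a chromatin architectural factor that activates its transcription, fell from 18.2 ± 2.32 to 10.7 ± 1.78 CPM, with log2FC -0.77 (SE 0.12, adjusted p = 3.17e-05, edgeR). HMGA1 did not pass (adjusted p = 0.138, edgeR), and LIN28A had 0 counts. LIN28B, with 168 counts over all libraries, pointed upward but did not pass (log2FC 0.745, SE 0.339, adjusted p = 0.0788, edgeR). It was called higher, among other settings, with a replicate block (adjusted p = 0.0392, edgeR).

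E proteins pair with each other and are held back by ID proteins. While TCF4 rose, TCF12 fell from 104 ± 6.49 to 71.4 ± 4.77 CPM, with log2FC -0.54 (SE 0.06, adjusted p = 1.02e-06, edgeR). TCF3, the most abundant E protein at 32.1 FPKM in DMSO, did not pass (log2FC 0.12, SE 0.05, adjusted p = 0.0652, edgeR), although its groups did not overlap. TCF3 was called higher with a replicate block (adjusted p = 0.0318, edgeR), with upper quartile scaling (adjusted p = 0.031, edgeR) and with library totals alone (adjusted p = 0.00161, edgeR). Leaving out PR-957 replicate 4 also gave 2 E proteins called higher, TCF4 and TCF3. TCF4 took 1.09 ± 0.120% of the family's counts per kilobase in DMSO and 1.89 ± 0.472% in PR-957 (exact permutation p = 0.0286, adjusted p = 0.0714 over the 5 families). No DMSO library was above 1.26%, and no PR-957 library was below 1.45%. Both ID genes with enough counts rose. ID1 rose from 1.62 ± 0.515 to 6.26 ± 0.919 CPM with log2FC 1.95 (SE 0.21, adjusted p = 4.35e-07, edgeR). ID2 rose by less, with log2FC 0.21 (SE 0.06, adjusted p = 0.00629, edgeR), from a level of 39.3 FPKM in DMSO. ID3 and ID4 had 3 counts or fewer.

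In the remaining families the member of the set was mostly the dominant gene. ZEB2 took 89.9 ± 0.776% of ZEB counts per kilobase in DMSO and 89.7 ± 1.57% in PR-957 (exact permutation p = 0.83, adjusted p = 0.914), and ZEB1, its close relative, did not pass the test (log2FC 0.03, adjusted p = 0.828, edgeR). MBNL1 took 93.4 ± 0.547% and 93.3 ± 0.418% (exact permutation p = 0.914, adjusted p = 0.914), with MBNL2 and MBNL3 not passing either (adjusted p = 0.517 and 0.850, edgeR). Among the CELF splicing factors, which oppose muscleblind proteins, CELF2 fell with log2FC -0.31 (SE 0.06, adjusted p = 0.000195, edgeR) and CELF1 had one of -0.02 (adjusted p = 0.811, edgeR). CPEB2 took 69.3 ± 2.13% and 66.4 ± 2.08% of its family (exact permutation p = 0.143, adjusted p = 0.238). CPEB3 and CPEB4 did not pass (log2FC values -0.32 and -0.03, adjusted p = 0.0896 and 0.895, edgeR), and CPEB1 had 0 counts. In the LAMP family, LAMP1, the major lysosomal membrane protein, rose from 156 ± 10.4 to 225 ± 7.25 CPM, log2FC 0.53 (SE 0.06, adjusted p = 3.97e-07, edgeR). LAMP2 and CD68 did not pass (adjusted p = 0.452 and 0.0908, edgeR), and LAMP3 had 2 counts. CD68 had 91.5 CPM in DMSO replicate 4 and 58.4 to 70.1 CPM in the other DMSO libraries, and without that library it was called higher (log2FC 0.49, adjusted p = 2.73e-06, edgeR). PROM2 had 23 counts in all and was not tested.

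**Figure D4:**
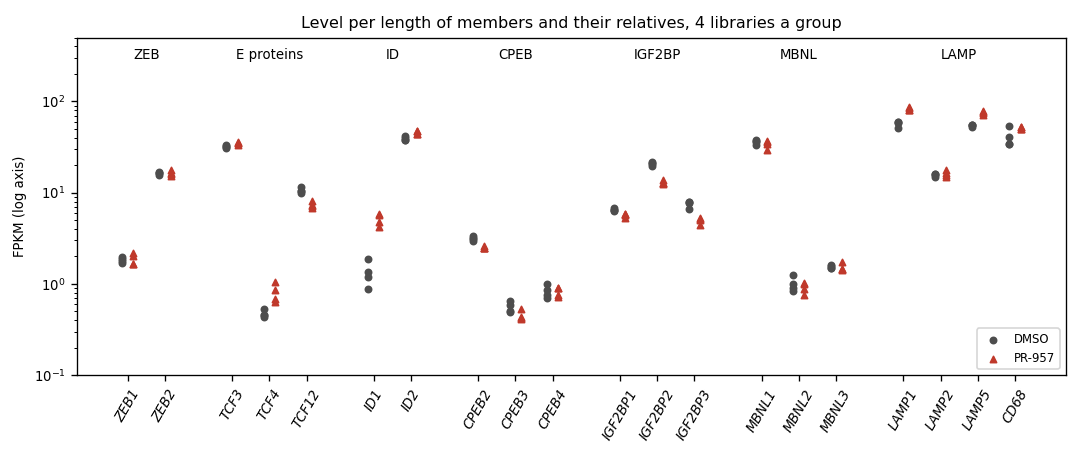
FPKM (y axis, log scale) of genes of the set beside their relatives in 4 DMSO (grey circles) and 4 PR-957 (red triangles) libraries. The 3 IGF2BP genes sit lower under PR-957, TCF4 and TCF12 move in opposite directions, and ID1, LAMP1 and LAMP5 sit higher.

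TCF4, LAMP5 and ZEB2 are also genes of plasmacytoid dendritic cells, so a list of 17 further genes of that cell type was read. Of its 10 tested genes, 3 were higher, against 23.1% of all tested genes, and 2 lower, against 23.5%, with a median log2FC of 0.07. CXCR3 and PLD4 had the largest increases (log2FC values 1.16 and 0.33), and IRF7 and BCL11A the largest decreases (-0.75 and -0.62). CXCR3 was near the floor, with 42 counts in DMSO and 98 in PR-957. With a minimum of 1 CPM in 4 or more libraries it was not tested, and 2 genes of the list were higher. The IRF7 value rested on DMSO replicate 4, with 60 counts where the other DMSO libraries had 20 to 26, and without that library it was -0.45 and not called (adjusted p = 0.205, edgeR), while BCL11A was at -0.63. Fitted on replicates 3 and 4, CXCR3, PLD4 and IRF8 did not pass (adjusted p = 0.0698, 0.137 and 0.108, edgeR). Summed over the list, DMSO libraries held 405 to 425 CPM and PR-957 libraries 420 to 479 CPM, most of it IRF8, which had 278 ± 11.1 and 330.4 ± 16.6 CPM. The part of these genes in the rise of TCF4 and LAMP5 was not tested. The surface marker LILRA4 was at 0 counts, CLEC4C had 9 counts and GZMB 3 over all libraries. IL3RA was at 0 as well, but it lies in the region shared by X and Y, where fragments align to both copies. In bulk libraries, fewer cells of a type and less RNA per cell cannot be told apart.

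The set was last placed beside 22 other KMT2A-fusion targets outside the HOX and TALE families, of which 19 were tested. In this list 15 genes were lower, 2 higher and 2 not called, with a median log2FC of -0.35, where 23.5% of all tested genes were lower and 23.1% higher. At 1.5-fold or more 5 of the 19 were called, against 1818 of all 13179 tested genes. FLT3, MEF2C, RUNX2 and CDK6 in it are named by the study as lower in these libraries, and the study's figures used fold cutoffs. The whole list was written with earlier results of these data known, so no part of the count is independent evidence. CDK6 was near the threshold (adjusted p = 0.0458, edgeR), and its groups overlapped. Over the alternatives between 11 and 16 genes of the list were lower. MYO1G and CSPG4 did not pass (adjusted p = 0.153 and 0.963, edgeR), and DMSO replicate 4 was their highest library, at 175 CPM for MYO1G and 36.8 CPM for CSPG4. Without it CSPG4 was called higher (log2FC 0.36, adjusted p = 0.00655, edgeR), which made 3 genes higher. MYO1G was called lower with a replicate block (adjusted p = 0.0214, edgeR) and with a term for replicates 1 and 2 against 3 and 4 (adjusted p = 0.049, edgeR). Fitted on replicates 1 and 2 only, MYO1G was called lower too (log2FC -0.27, adjusted p = 0.00194, edgeR). BCL2, the survival factor, had the largest decrease, from 130 ± 8.51 to 66.0 ± 4.32 CPM with log2FC -0.98 (SE 0.06, adjusted p = 3.48e-10, edgeR), and FLT3, a receptor kinase, had almost the same (-0.98, SE 0.07). Both values lay below that of IGF2BP2, a difference that was not tested. The genes that rose beside TCF4 and LAMP5 were CCNA1, a cyclin, from 5.01 ± 0.912 to 14.1 ± 0.278 CPM (log2FC 1.49, SE 0.13, adjusted p = 1.54e-08, edgeR), and FUT4, the enzyme that makes the CD15 antigen, from 84.3 ± 5.79 to 114.6 ± 8.27 CPM (log2FC 0.45, SE 0.06, adjusted p = 1.30e-05, edgeR).

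The genes closest in pattern were sought for the highest and the lowest fold change of the set, by the root mean square difference of centred log2 CPM over the 8 libraries among 11269 genes. For TCF4 these were TAGAP, ITPR3 and LYSMD4, with differences of 0.102, 0.117 and 0.115 and log2FC values of 0.72, 0.72 and 0.65. For IGF2BP2 they were CEP57, ADD2 and EVI2B, with differences of 0.046, 0.047 and 0.051 and log2FC values of -0.66, -0.65 and -0.67. The match was closer for IGF2BP2, whose libraries varied less within groups.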

How the data were processed

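Poly(A) RNA of MOLM-13 cells was sequenced in 8 libraries, and titles gave the groups and replicate numbers. The submitters' processing notes name Trimmomatic 0.39, STAR 2.7.10a and hg38. Per the file headers, raw fragment counts per gene were made with featureCounts 2.0.1 (paired, both ends mapped, strand setting reverse) against RefSeq models. A deposited table of the authors' own DESeq2 comparison was not used. The header names 16 libraries, of which the 8 in the table were analysed.

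Rows without values (6) were dropped. PR-957 was compared with DMSO over all genes kept by filterByExpr, with edgeR 4.0.16 in R 4.3.3 (robust glmQLFit, glmQLFTest, two-sided, TMM, no covariate), adjusted by Benjamini-Hochberg. SE is |log2FC| over the root of F. FPKM used the exon lengths of the table. Family shares were compared by exact permutation (scipy 1.17.1). Replicates differed by more than sampling noise in a chi-square comparison (at least 3.33 per gene, where noise gives about 1). The 10 genes and all lists were chosen with earlier results of these data known. Genes named were the 10 genes, genes overlapping them, tested relatives, the 2 largest called changes in each direction in the other lists and the 3 most alike genes. Line markers, IRF8, LILRA4, CLEC4C, GZMB, IL3RA, CD14, LYZ, FCN1, CSF1R, ITGAM, MYO1G and CSPG4 were named after their values were seen. Alternatives were other scalings, filters and tools (DESeq2 1.42.0, limma-voom in limma 3.58.1), a replicate block, subsets of replicates and leaving out each library. The difference between pairs of replicates, counts of lists without DMSO replicate 4, counts of the monocyte list over the alternatives and a sum without LYZ were added after the data were seen. The Strand cells of the table are cut short, so the first listed strand of a gene stood for all its exons.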

Additional observations from a re-analysis of the deposited data

How the results depend on the processing

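Across 19 alternatives, IGF2BP2, SKIDA1, VENTX, CPEB2 and LAMP5 kept their direction and their side of the threshold, with the largest adjusted p at 0.0252 for CPEB2 in replicates 3 and 4 only (edgeR). Their log2 fold changes ranged from -0.70 to -0.59, -0.63 to -0.51, -0.57 to -0.42, -0.35 to -0.24 and 0.41 to 0.54. TCF4 ranged from 0.41 to 1.09 and missed the threshold in replicates 1 and 2 only, where 1 gene of the set was higher instead of 2. With library totals alone the set's median was -0.117, MBNL1 had a log2 fold change of 0.0095 and ZEB2 one of 0.077. For ZEB2, upper quartile scaling gave 0.0093, a 1 CPM minimum met by 4 or more libraries 0.00079, replicates 3 and 4 only 0.0046, and leaving out 1 library gave -0.039 to 0.021. The share of TCF4 in its family rose by 0.801 percentage points, by 1.35 without length scaling, by 0.364 in replicates 1 and 2 only and by 1.24 in replicates 3 and 4 only, and by 0.597 to 0.947 with 1 library left out. The share differences of ZEB2 and MBNL1, -0.210 and -0.0539, became 0.524 and 0.0670 in replicates 3 and 4 only and ran from -0.748 to 0.241 and from -0.191 to 0.215 with 1 library left out. The cause was not tested.

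The labels do not say whether replicate numbers pair the samples. The correlation of deviations from group means was 0.151, 0.213, 0.098 and 0.198 for libraries of the same number, 1 to 4. Every DMSO library correlated best with the PR-957 library of its own number. PR-957 replicate 3 was the only library closer to another number (0.105 with DMSO replicate 4, against 0.098 with DMSO replicate 3). Pairing by number was thus not excluded. All 8 correlations within replicates 1 and 2 or within 3 and 4 were positive (0.074 to 0.213) and all 8 across these pairs negative (-0.187 to -0.041), a split that the labels do not name. With a term for it 2 genes of the set were higher and 4 lower, and 3371 and 3297 of all genes. With a replicate block 2 genes of the set were higher and 4 lower, as without it, while 3513 of all genes were higher and 3400 lower, against 3045 and 3098. For family shares the block allows no p below 0.125. TCF4, with 415 counts in DMSO, was the tested gene that depth limited most, and EYA1 and PROM1 could not be tested.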

Other observations

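Some relatives of EYA1 and SKIDA1 were called. EYA3, the only EYA gene with enough counts, rose from 31.1 ± 2.80 to 40.1 ± 1.63 CPM (log2 fold change 0.37, SE 0.07, adjusted p = 0.000363, edgeR). SIX5, a homeobox factor, fell (log2 fold change -0.52, SE 0.12, adjusted p = 0.00160, edgeR), while SIX4 did not pass (adjusted p = 0.274, edgeR). Relatives of SKIDA1 by domain included DACH1 and SKI, which fell with log2 fold changes of -0.31 (SE 0.07, adjusted p = 0.00225, edgeR) and -0.32 (SE 0.06, adjusted p = 0.000129, edgeR). SKIL and SKOR1 did not pass (adjusted p = 0.145 and 0.153, edgeR).

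Of 9 tested monocyte maturation genes, 5 were higher, against 23.1% of all tested genes, and 1, CTSS, was lower (log2 fold change -0.22), against 23.5%. Without DMSO replicate 4, CSF1R and ITGAM were called higher too (log2 fold changes 0.64 and 0.47, adjusted p = 0.00234 and 2.42e-05, edgeR). Over the alternatives between 4 and 7 genes of this list were higher, with 4 for example when DMSO replicate 1 was left out. FCN1, called higher with 186 counts over all libraries, had overlapping groups (adjusted p = 0.0229, edgeR). S100A8 and S100A9 had the largest increases, with log2 fold changes of 3.45 and 2.73. The summed level of the 14 listed genes ran from 372 to 408 CPM in DMSO and from 944 to 1179 CPM in PR-957, and nearly all of this rise was LYZ, lysozyme, at 153 ± 16.1 and 819 ± 103.6 CPM. Without LYZ, a sum added after seeing the data, the other 13 genes held 224 to 253 CPM in DMSO and 238 to 259 CPM in PR-957. CD14, with 30 counts over all libraries, was not tested. Their part in the changes of the KMT2A-fusion targets was not tested.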
